A study of Homo sapiens with 2 samples.

Results

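The 6 genes described here mark natural killer (NK) cells and carry their natural cytotoxicity receptor system: NCAM1, NCR1, NCR2, NCR3, TYROBP and TBX21. They were chosen by gene symbol in the platform annotation, and all 6 had a named probe set, among 14884 named genes on the array. Where a gene had several probe sets, the brightest by its mean over the arrays was used. The cells were SNK6, an established line of NK/T-cell lymphoma, cultured with interleukin-2. One group received romidepsin, which inhibits class I histone deacetylases, plus sildenafil, a phosphodiesterase inhibitor (1 array). The other received romidepsin alone (1 array), and both lasted 72 h. Sildenafil was read from a short form in the sample title, the treatment protocol naming no other second drug. Both groups thus share the line, the medium and romidepsin, no dose is stated in those sources, and samples without treatment or with sildenafil alone were not analysed here. With 1 array per group no difference could be tested and no value carries a replicate error.

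NK cells kill without prior sensitisation, through germline-encoded receptors whose activating and inhibitory signals are weighed against each other. The natural cytotoxicity receptors have short cytoplasmic tails and signal through adaptor proteins held by charged residues in the membrane: NCR1 (NKp46) and NCR3 (NKp30) through CD247 and FCER1G, and NCR2 (NKp44) through TYROBP (DAP12). The adaptors carry tyrosine motifs that recruit the kinases SYK and ZAP70. NCAM1 (CD56) is the adhesion molecule by which human NK cells and most NK/T-cell lymphomas are recognised, and TBX21 encodes T-bet, a T-box transcription factor of NK maturation and interferon-gamma production.

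RefSeq (GRCh38.p14) promoter entries matched 4 of the 6 genes, NCR1, NCR2, TYROBP and TBX21. The 250 bases before the annotated start are printed for TBX21 and NCR2, the genes with the largest differences below, and for NCR1, a receptor whose signals were nearly equal. The choice followed the values. Capitals mark the 6-base words searched on both strands: AGGTGT, a T-box half-site, TGTGGT, a RUNX word, and GGAAGT, an ETS word.
TBX21 promoter: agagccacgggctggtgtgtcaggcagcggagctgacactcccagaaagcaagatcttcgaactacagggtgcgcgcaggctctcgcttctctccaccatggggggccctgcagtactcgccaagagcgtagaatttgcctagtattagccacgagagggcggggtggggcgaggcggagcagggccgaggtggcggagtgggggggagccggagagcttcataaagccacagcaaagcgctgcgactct
NCR2 promoter: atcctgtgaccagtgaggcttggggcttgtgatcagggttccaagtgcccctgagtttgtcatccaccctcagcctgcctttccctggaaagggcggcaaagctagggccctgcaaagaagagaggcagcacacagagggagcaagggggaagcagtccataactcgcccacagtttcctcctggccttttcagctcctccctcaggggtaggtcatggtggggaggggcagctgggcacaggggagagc
NCR1 promoter: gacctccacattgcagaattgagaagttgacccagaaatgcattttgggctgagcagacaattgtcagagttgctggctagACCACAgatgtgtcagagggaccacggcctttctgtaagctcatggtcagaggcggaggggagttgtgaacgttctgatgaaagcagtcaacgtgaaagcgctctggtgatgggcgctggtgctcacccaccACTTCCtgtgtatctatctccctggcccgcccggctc

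These windows lie on the plus strand at chr17:47732986-47733235, chr6:41335358-41335607 and chr19:54905898-54906147. The NCR1 window holds 1 RUNX word, beginning 169 bases before the start, and 1 ETS word, beginning 37 bases before it. The words do not overlap. No searched word stood in the TBX21 or NCR2 window, and the TYROBP window held 1 ETS word. Over all 27305 promoter windows of that length, 9.66% held the T-box word, 10.9% the RUNX word and 19.9% the ETS word. The windows differed in CpG content. That of TBX21 had 17 CpG dinucleotides and that of NCR2 had 2, against a median of 11 over all windows. A word is a description of these letters and not a binding site.

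The deposited values were read as log2 signals, and their distributions were closely similar on both arrays. Whether a shift shared by most transcripts was removed before deposit is not given in the sources used here, so each difference is read beside the rest of the genes. Signals of different probe sets do not share a scale, and no gene's level is set against another's here. All 6 genes passed the signal filter, a brighter array at or above 3.91, the median of all values, which 10081 named genes passed. Their median difference, with sildenafil minus without, was 0.05 on the log2 scale, against -0.01 over those 10081 genes. Under other scalings the median of all genes past the filter ran from -0.04 to 0.02, changing sign. Of the 6, 3 were above 0 and 3 below, NCR1 turning above 0 with quantile normalization and lowess centring, while 47.2% of all genes past the filter were above 0. None of the 6 was 1.5-fold apart, as 1.99% of all genes were, or 2-fold apart, as 0.179% were. At a lower threshold, a difference of 0.32 on the log2 scale, TBX21 and NCR2 were apart, 2 of 6, against 12.7% of all genes. Differences had an SD of 0.25 among genes near either in signal and 0.22 over all genes. The 12.7% is thus not matched for signal. In these bulk RNA samples, fewer cells with a transcript and less of it per cell cannot be told apart.

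**Figure D1:**
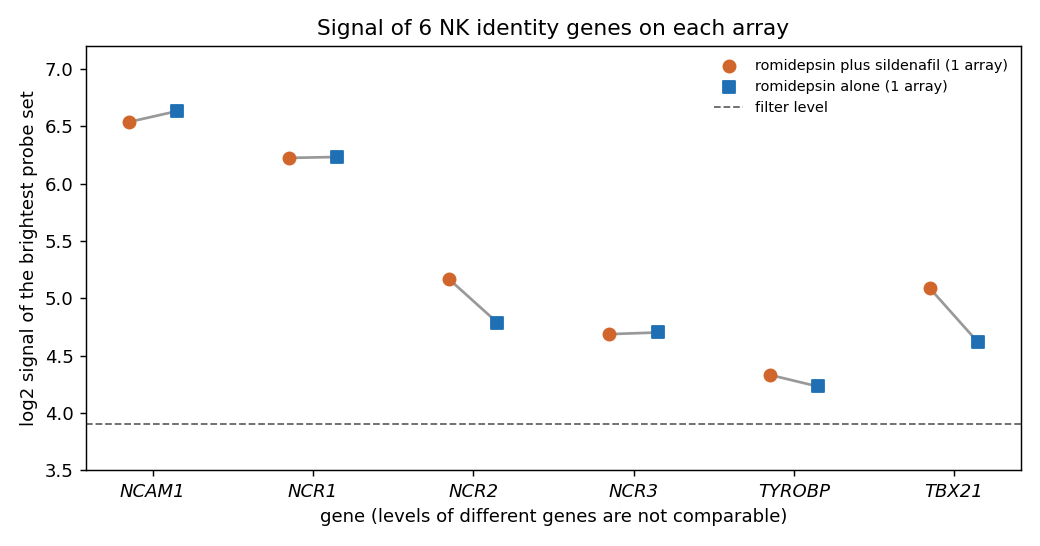
Log2 signal (y axis) of the brightest probe set of each gene (x axis) with romidepsin plus sildenafil (circles, left of each pair) and with romidepsin alone (squares), 1 array each, with the filter level of 3.91 as a dashed line. TBX21 and NCR2 slope down to romidepsin alone, and NCAM1, NCR1 and NCR3 lie nearly level.

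NCAM1, the adhesion molecule of NK identity, had a log2 signal of 6.54 with sildenafil and 6.63 without. The difference of -0.09 is a 1.07-fold lower signal, and it was -0.04 with quantile normalization and -0.06 with lowess centring. To judge such a size, each gene was set beside the 500 named genes past the filter nearest to it in mean signal, since dimmer genes scatter more. For NCAM1 the differences of those genes had an SD of 0.16, and 257 of the 500 lay at least as far from 0. The probe set gives 1 value for a gene with 31 RefSeq transcripts, so its isoforms were not resolved.

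NCR1, the receptor NKp46, had signals of 6.22 with sildenafil and 6.23 without. Its difference of -0.01 was the smallest in size of the 6, and 474 of 500 genes of like signal differed by as much or more. The NCR1 promoter, with its RUNX and ETS words, was printed above because these signals were nearly equal. Whether the words bear on the signal was not tested.

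NCR2, the receptor NKp44, which activated NK cells display and which depends on TYROBP, had signals of 5.16 with sildenafil and 4.79 without. The difference of 0.38 is 1.30-fold. It was 1.51 times the SD of genes of like signal (0.25). Of the 500, 64 lay as far from 0 in either direction and 33 were as high. NCR2 therefore stood toward the upper edge of its like-signal genes but inside their central 95%, which ran from -0.51 to 0.51.

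NCR3, the receptor NKp30, had 8 probe sets, 7 of them with identical values. The gene lies in the major histocompatibility complex, for which reference genomes hold several haplotype sequences. The brightest probe set read 4.69 with sildenafil and 4.70 without, a difference of -0.01. The other 7 each differed by -0.04. Equal values of this kind are not repeat measurements. Among the 500 genes of like signal 472 differed by as much or more, so NCR3, like NCR1, was nearly level between the arrays.

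TYROBP, the adaptor of NCR2 and of several other activating receptors, had signals of 4.33 with sildenafil and 4.23 without. The dimmer array lay only 0.32 above the filter level. The difference of 0.10 is 1.07-fold (0.06 on the log2 scale with lowess centring), and 343 of 500 genes of like signal differed by as much or more. The adaptor's difference was thus well within 1 SD (0.27) of its like-signal genes, beside the larger value of the receptor it serves.

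TBX21, encoding T-bet, had signals of 5.09 with sildenafil and 4.62 without. Its difference of 0.47, or 1.39-fold, was the largest of the 6. It was 1.85 times the SD of genes of like signal (0.25). Of the 500, 41 lay as far from 0 and 21 were as high. Their central 95% ran from -0.54 to 0.52, so the TBX21 value lay near its upper limit without passing it. In all, 4 of the 6 genes differed by less than 1 SD of their like-signal genes, and none lay outside the central 95%.

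**Figure D2:**
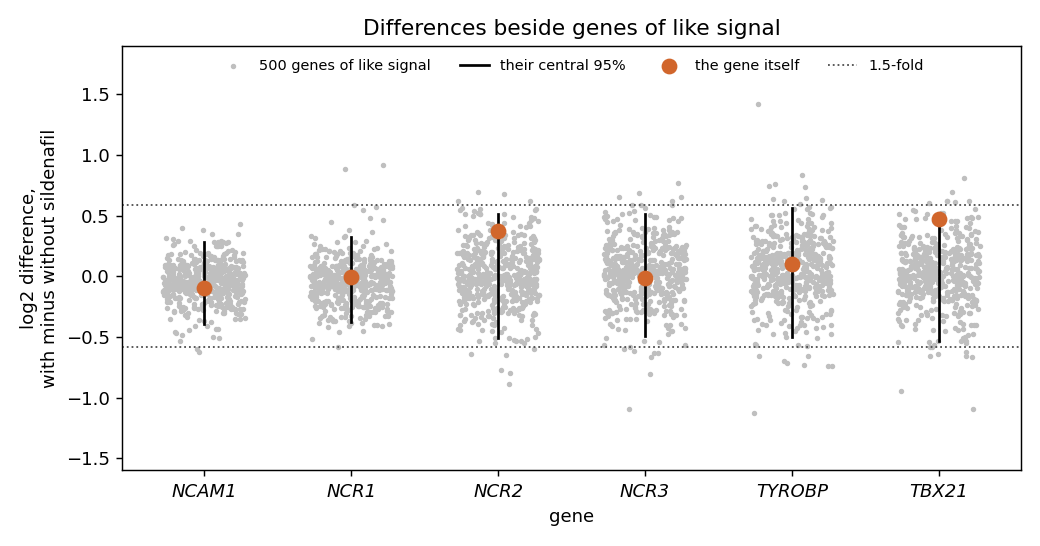
Log2 difference, with minus without sildenafil (y axis), of each gene (large points) over the 500 named genes nearest in mean signal (small points), with the central 95% of those as a bar and 1.5-fold as dotted lines. All 6 genes lie inside the bars, TBX21 and NCR2 toward the top and the other 4 near the middle, and the clouds of NCAM1 and NCR1 are the narrowest.

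The pathways around these genes were read from 12 lists of related genes and of cell type markers. Of the 194 listed genes 120 were named on the array and 83 passed the filter, 42 of them above 0 and 41 below. Of the 83, 1 gene was 1.5-fold apart (1.20%, against 1.99% of all genes past the filter). Their median difference was 0.00, against -0.01 for all genes. Of the 83, 6 passed the filter on 1 array only (NID1, SLAMF6, NFASC, BCAM, VSIG4 and KRT19), so the size of their differences is uncertain.

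Among signalling adaptors and kinases, 13 genes passed the filter, 4 of them above 0 and 9 below, with a median of -0.05 and none 1.5-fold apart. SYK, the kinase recruited by phosphorylated TYROBP, had signals of 4.68 with sildenafil and 5.12 without, a difference of -0.44. That is -1.68 SD of its like-signal genes, and 52 of 500 differed by as much or more. The sign was opposite to that of NCR2 and of TYROBP, whose own difference was well within 1 SD. Whether these genes change together was not tested. LYN, a Src-family kinase, read 7.83 with sildenafil and 8.07 without (-0.24). At -1.89 SD of its like-signal genes LYN stood further out than SYK, and 39 of 500 differed by as much or more. The exchange factor VAV2 differed by -0.27. LCK, the Src-family kinase of T and NK cells, differed by 0.28. CD247, the zeta chain used by NCR1 and NCR3, differed by 0.06, and HCST (DAP10), the adaptor of the receptor NKG2D, by -0.05. FCER1G was not analysed here.

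Known ligands of the natural cytotoxicity receptors had 3 genes past the filter, all 3 above 0 by little. PCNA, a replication clamp reported as an NCR2 ligand, differed by 0.02 and vimentin (VIM) by 0.02. Nidogen 1 (NID1) differed by 0.15. Other NK receptors had 6 genes past the filter, 3 above 0 and 3 below, with a median of -0.02 and values from -0.09 (the inhibitory receptor PVRIG) to 0.07 (SLAMF6). The activating receptor CD226 differed by -0.09 and CD7 by 0.06. The narrow range of these receptors lay within the values of NCAM1 and TYROBP and did not reach that of NCR2. Of receptors listed as partners of TYROBP, mostly myeloid and not all of them with an established pairing, 5 passed the filter, 3 above 0 and 2 below, with a median of 0.04. CD300E had signals of 5.08 with sildenafil and 4.70 without, a difference of 0.38 close to that of NCR2. TREM2 differed by -0.19, SIGLEC15 by -0.14 and CD300C by 0.06.

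Lymphoid transcription factors had 19 genes past the filter, 11 above 0 and 8 below, with a median of 0.10 and none 1.5-fold apart. ZNF683, encoding HOBIT, a factor of tissue-resident lymphocytes, had signals of 4.38 with sildenafil and 4.04 without (0.35). TOX, which acts early in NK development, differed by 0.32 and ZEB2, a maturation factor that works with T-bet in mouse NK cells, by 0.27. FOXO1, a known repressor of TBX21 in mouse NK cells, had signals of 5.90 with sildenafil and 6.19 without, a difference of -0.28. ZNF683, TOX, ZEB2 and FOXO1 had the largest differences of the 19. Beside genes of like signal, RUNX3 (0.24, 2.10 SD) and ZEB1 (-0.25, -1.87 SD) stood further out. EOMES, the paralog of TBX21, read 2.90 with sildenafil and 3.21 without, below the filter on both arrays.

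Genes that T-bet is known to regulate had a median of 0.00 over 10 genes past the filter, 6 above 0 and 4 below. TBX21 itself was at 0.47. The list does not give the direction of regulation, so its median is no measure of T-bet activity. CCL4, a chemokine, was the 1 listed gene beyond 1.5-fold, with signals of 4.56 with sildenafil and 3.92 without (1.56-fold). Its signal without sildenafil lay barely above the filter level, so the size of its difference is uncertain. Of its 500 like-signal genes, 13 differed by as much or more. CCL3, a close relative of CCL4, differed by -0.33. S1PR5, a receptor for NK cell egress, differed by 0.27 and the selectin ligand SELPLG by 0.06. The interferon-gamma gene itself was not analysed here.

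Relatives of NCAM1 and genes of its polysialylation had 7 genes past the filter, 3 above 0 and 4 below, with a median of -0.03. BCAM, an adhesion molecule of the immunoglobulin superfamily, had signals of 4.31 with sildenafil and 3.74 without, the second below the filter level. GFRA1, a glial factor receptor that can bind NCAM1, differed by 0.47, as much as TBX21 to that precision. The GFRA1 value is 1.76 SD of its like-signal genes, and 38 of 500 differed by as much or more. CADM3 differed by 0.28 and ALCAM by -0.18. NCAM2, the closest paralog, read 3.44 with sildenafil and 3.48 without, below the filter. The cytokine receptors, ligands and kinases of NK cells had 9 genes past the filter, 5 above 0 and 4 below, with a median of 0.01 and values from -0.20 (IL15) to 0.10 (STAT5B). IL21R differed by -0.13 and IFNGR1 by -0.11.

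**Figure D3:**
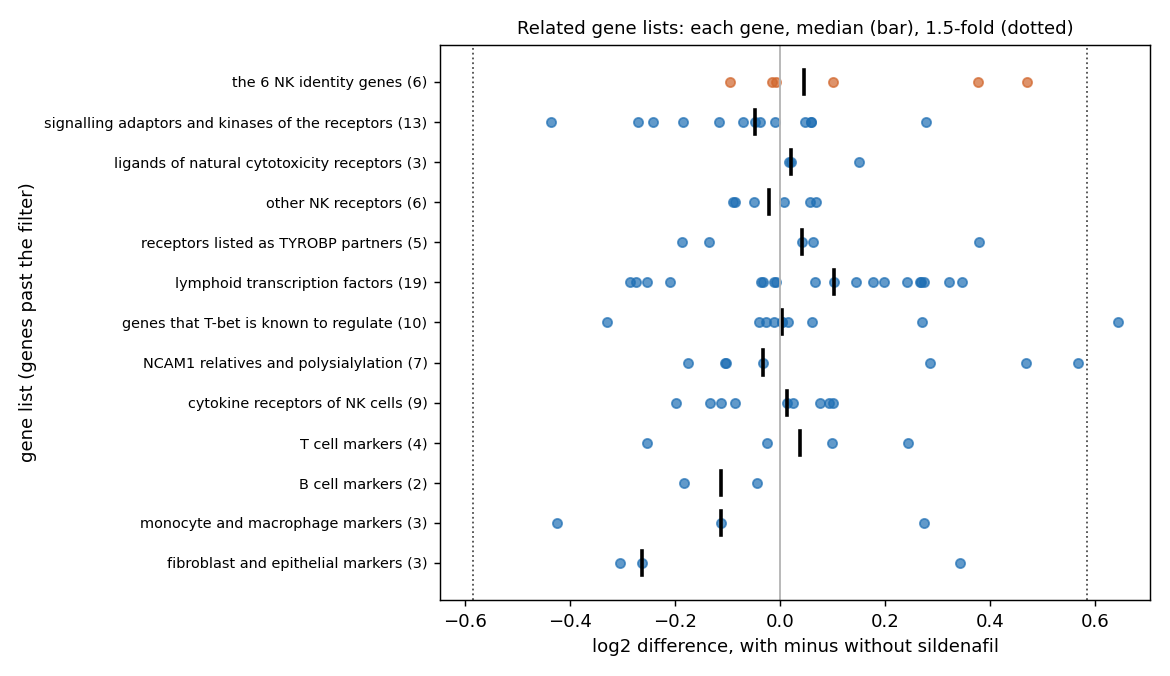
Log2 difference, with minus without sildenafil (x axis), of every gene past the filter in the 6-gene set and in 12 related lists (rows, with the number of genes), with medians as bars and 1.5-fold as dotted lines. List medians lie between -0.26 and 0.10, and 1 gene, CCL4, passes a dotted line.

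The label of the cells was read against marker lists. Of 7 NK markers listed, 3 had a named probe set, NCAM1, NCR1 and NCR3, and these passed the filter on both arrays. They belong to the 6 genes themselves, so the label was not checked on other NK markers. Of the T cell markers 4 passed, with a median of 0.04: CD4 differed by 0.10, CD5 by 0.24, CD6 by -0.25 and CD8A by -0.02, while the CD3 genes were not analysed here. The 2 B cell markers past the filter were PAX5, with 5.05 with sildenafil and 5.23 without, and BLK, with 5.14 with sildenafil and 5.19 without. Markers of monocytes and macrophages were at 0.27 (CSF1R), -0.11 (CD68) and -0.42 (VSIG4). Those of fibroblasts and epithelia were at 0.34 (KRT18), -0.30 (KRT8) and -0.26 (KRT19). KRT18 had signals of 7.38 with sildenafil and 7.04 without. At 2.48 SD of its like-signal genes it stood furthest out of all listed genes past the filter. Of its 500 like-signal genes, 10 differed by as much or more. KRT8 was at -1.26 SD and KRT19 at -0.97 SD. No detection calls accompany the values, and markers of other lineages also passed the filter, so passing it does not show that a transcript was present.

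Position on the chromosome was a property that the choice of genes had not used. For each gene the nearest genes named on the array were taken from the RefSeq order, 2 on each side, 24 in all, of which 21 passed the filter. Their differences ran from -0.26 to 0.73 with a median of 0.00, and 1 of the 21, NCAM1-AS1, was 1.5-fold apart, beside 1.99% of all genes past the filter. TBX21 had an immediate neighbour with a similar difference: TBKBP1, encoding an adaptor that binds the kinase TBK1, had signals of 5.58 with sildenafil and 5.12 without. Its difference of 0.46 was matched in size by 22 of its 500 like-signal genes. OSBPL7, the immediate neighbour on the other side, differed by -0.22.

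Around NCAM1 the antisense RNA gene NCAM1-AS1 had signals of 4.57 with sildenafil and 3.84 without. It was read by its own probe set and passed the filter only on the array where it was higher, so the size of its difference is uncertain. NCAM1 itself was at -0.09. Next to TYROBP the adaptor gene HCST differed by -0.05 and LRFN3 by 0.06, and the genes beyond them, APLP1 and SDHAF1, by -0.26 and -0.16. Of the neighbours of NCR1, LILRP2 differed by -0.25, GP6 by -0.11 and RDH13 by 0.13. LILRP2 passed the filter only on the array without sildenafil, where it was higher, so the size of its difference is uncertain. Array-named neighbours were not always adjacent. Between LILRP2 and NCR1 lay 12 other RefSeq genes, against 0 between HCST and TYROBP. NCR3 lay among neighbours that were as level as itself, TNF at 0.00, LST1 at 0.00, PRRC2A at 0.05 and APOM at 0.03. NCR2 lies beside the TREM receptor genes, of which TREM1 was below the filter on both arrays and TREML4 differed by -0.20. TREML4, too, passed the filter only on the array without sildenafil, so the size of its difference is uncertain. FOXP4, on the other side of NCR2, differed by 0.01. TBKBP1 and NCAM1-AS1 were singled out after their values were seen.

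**Figure D4:**
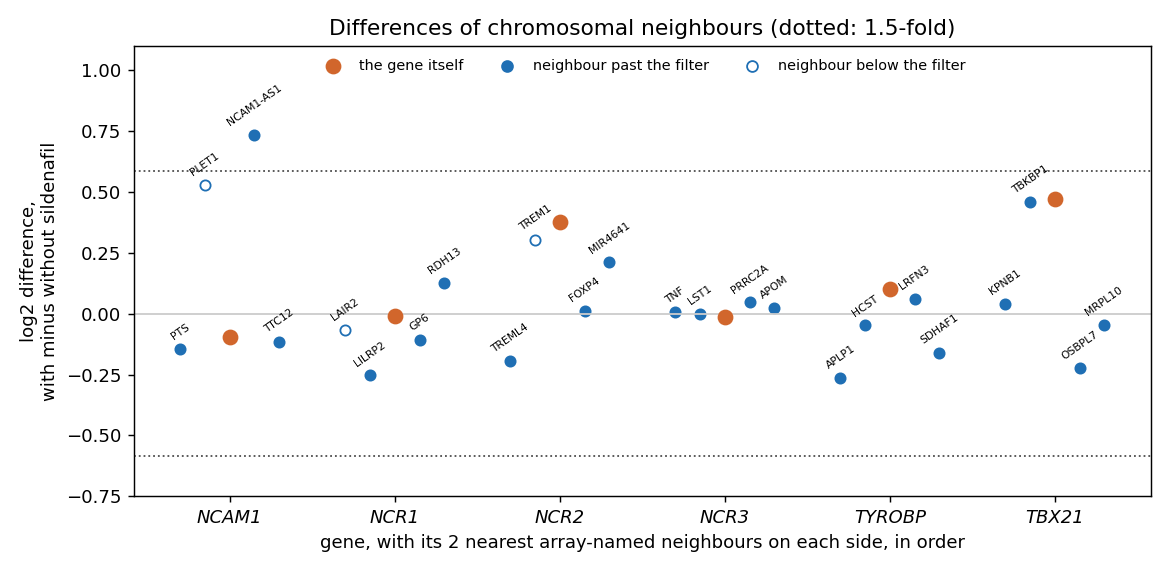
Log2 difference, with minus without sildenafil (y axis), of the 6 genes (large points) and the nearest array-named genes on each side in chromosomal order (small points, open where below the filter), with 1.5-fold as dotted lines. TBKBP1 sits beside TBX21 at nearly its value, and NCAM1-AS1, past the filter on 1 array only, lies above the dotted line. LILRP2 and TREML4 also passed the filter on 1 array only.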

How the data were processed

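Whole-transcript arrays of 2 samples were used, grouped by their titles. The authors deposited 1 table of log2 signals, with 53617 probe sets. Base 2 is inferred from their range (0.79 to 13.05). How they were summarised, background-corrected and normalized is not given in the sources used here. Column medians were 3.92 (romidepsin plus sildenafil) and 3.89 (romidepsin), and sorted columns differed by at most 0.15. The number of arrays limits the precision.

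The platform annotation named 16098 probe sets. All 6 Entrez identifiers matched the RefSeq gene table (GRCh38.p14), used for names, neighbours and transcript counts. The filter, the brightest probe set and the 1.5-fold rule are described with the results. No test was possible, and like-signal genes are not replicates. Gene lists named up to 4 genes past the filter with the largest absolute difference, every gene at least 1.5-fold apart, and EOMES, NCAM2, HCST, FCER1G and CD247. RUNX3 and ZEB1 were named after their values were seen. Genes, lists and settings were chosen with earlier results of these data known; neighbours and promoter words were added later. Alternatives changed the normalization, probe set, filter, threshold and like-signal window. The scripts were tested on simulated data. Python 3.11.15, numpy 2.4.6, pandas 2.3.3, statsmodels 0.14.6 and matplotlib 3.10.9 were used.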

Additional observations from a re-analysis of the deposited data

How the results depend on the processing

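Over 30 alternative values of the 6 differences (arrays centred on their medians, quantile-normalized or centred by lowess of span 0.3, the mean over probe sets and the dimmest probe set), the largest shift was 0.06 (NCAM1), within the SD of genes of like signal. The sign changed only for NCR1, to 0.04 with quantile normalization and 0.03 with lowess centring. Only NCR3 had several probe sets, so the mean over probe sets and the dimmest probe set could move no other gene. NCAM1 lay between -0.12 and -0.04, NCR3 between -0.04 and -0.01 and TYROBP between 0.06 and 0.10. TBX21 stayed between 0.44 and 0.48 and NCR2 between 0.35 and 0.39. No gene of the 6 was 1.5-fold apart under the normalizations tried, and 2 were at the lower threshold of 0.32 on the log2 scale. Other filters could not change the count, since all 6 genes passed each of them. Of the 83 listed genes past the filter, 9 were apart at that lower threshold (10.8%, against 12.7% of all genes), 0 at 2-fold and 1 at 1.5-fold. In all 24 changes of the like-signal window the share of genes differing as much stayed within 1.5 times. For TBX21 the share lay between 5.96% and 10.0%. Dropping the filter could not change the share, since every window lay above the filter level, so that setting was no separate check. No paired analysis was possible because each group holds 1 array. With no replicate or background signal, none of these settings measures the variation between cultures or arrays.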

Other observations

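Of the listed genes with a named probe set, 37 lay below the filter level on both arrays, and none of them was 1.5-fold apart. Among them were NCR3LG1, the gene of the NCR3 ligand B7-H6, with a log2 signal of 2.30 with sildenafil and 2.40 without, and the checkpoint receptor TIGIT, with 3.47 with sildenafil and 3.09 without. ZBTB16, encoding the innate lymphoid factor PLZF, had 3.88 with sildenafil and 3.46 without. The adhesion gene MCAM had 2.81 with sildenafil and 3.31 without. A signal below the filter does not show that a transcript was absent.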
